A study of Mus musculus with 18 samples.

Results

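The nuclear genes that encode subunits of the oxidative phosphorylation complexes were followed through prefrontal cortex and hippocampus of male C57BL/6J mice. Members were all rows of the expression table whose symbol begins with Nduf (assembly factors named Ndufaf left out), Uqcr, Cox4 to Cox8 or Atp5, or is Sdha, Sdhb, Sdhc or Sdhd, and whose value reached 0.5 FPKM in 3 or more of the 18 columns. FPKM is the number of fragments counted, scaled by the length of the gene and the size of the library, so levels can be compared between genes. All 89 rows with such names passed, out of 18683 genes listed. Bulk RNA was sequenced from both tissues of 3 groups, with 3 libraries for each tissue and group. The control group is wildtype and received PBS, another is 5xFAD and received PBS, and the last is 5xFAD and received HM-EVs, which are extracellular vesicles from human breast milk (the vesicle group below). 5xFAD is a transgenic model of amyloid deposition whose transgenes are driven by the Thy1 promoter, which acts mainly in neurons. All mice received 10 intravenous injections, 1 every 3 days, between 5 and 6 months of age, and were perfused with PBS after behavioural testing. The labels do not say that the 3 libraries of a group come from separate mice, so p-values measure the spread between these libraries, which may be technical.

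Mitochondria make most of a neuron's ATP by passing electrons along a chain of inner membrane complexes and letting the resulting proton gradient drive ATP synthase. Complex I (NADH dehydrogenase) and complex II (succinate dehydrogenase) feed electrons to ubiquinone. Complex III passes them to cytochrome c and complex IV (cytochrome c oxidase) to oxygen. A few core subunits are encoded by mitochondrial DNA, which was not analysed here, and the rest by the nucleus. Several nuclear subunits exist in paired forms, of which one is general and the other is best known from heart, skeletal muscle, testis, lung or hypoxic cells. Synaptic activity makes cortex and hippocampus large consumers of this ATP, and reduced expression of these genes is often described in Alzheimer's disease tissue.

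The libraries held 26435418 to 36899300 reads in listed genes, of which 1.26% to 1.86% fell on members, so counting error is small for all but the lowest members. Tissue markers mostly fitted the labels, and all 5 neocortical markers were called lower in hippocampus in each group. Of the 5 hippocampal markers 2, 3 and 2 were called higher in wildtype, 5xFAD PBS and vesicle mice, with Prox1 and Spink8 each time. In 5xFAD PBS and in vesicle mice 1 of the 5 had a value below 0. Some libraries stood apart. The vesicle replicate 3 from prefrontal cortex had 870 FPKM of 13 summed choroid plexus markers, against 5.08 to 13.9 in the other cortical libraries. Its neocortical markers summed to 86.1 FPKM against 128 to 159. Its hippocampal markers summed to 96.5 against 36.8 to 52.3, within the 75.3 to 102 of the hippocampal libraries. Of these, Neurod1 stood at 66.1 FPKM against 3.53 to 4.92 in the other cortical libraries and 7.61 to 10.6 in hippocampus. Pvalb, listed as an interneuron marker, was at 283 FPKM against 38.6 to 56.1. Lhx6 of the same list was at 2.92, its lowest of all libraries. In hippocampus the choroid plexus sum was 36.2 to 170 in wildtype, 2641 to 8962 in 5xFAD PBS and 5751, 2290 and 188 in vesicle replicates 1, 2 and 3. Summed striatal markers ranged from 108 to 661 FPKM among cortical libraries. Levels are from bulk tissue, in which fewer cells of a type and less RNA per cell cannot be told apart.

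Most members were abundant. Mean levels over the 18 libraries were 100 FPKM or more for 58 members, 10 to 100 FPKM for 20 and under 10 FPKM for 11, and 78 members were above 10 FPKM in every library. Of the 89, 78 carried the annotation mitochondrial inner membrane (87.6%, against 2.18% of all genes listed). Members are short genes by the lengths recovered from the values: their median was 750 bases against 3203 for all genes, and 4.18% of all genes were shorter than that median.

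By role, the median of the mean levels ran from 96.8 FPKM in the complex I core, through 118 in its supernumerary subunits, 120 in complex II, 171 in complex III, 184 in complex IV and 191 in the ATP synthase head, to 259 in the ATP synthase stalk and membrane part. In complex I, Ndufs1, which carries iron-sulfur clusters, averaged 71.9 FPKM and Ndufv1, which binds NADH, 96.8. Its core subunits ran from Ndufs7 (63.2) to Ndufv2 (113), and its supernumerary subunits, which surround the core without taking part in catalysis, from Ndufa11 (31.5) to Ndufb9 (326). In complex II the flavoprotein Sdha was the highest (188) and the membrane anchor Sdhd the lowest (77.0), with the iron-sulfur subunit Sdhb at 152. Complex III ran from the Rieske iron-sulfur protein Uqcrfs1 (92.9) to the hinge protein Uqcrh (403), with the core protein Uqcrc1 at 154. Complex IV held both the highest member of all, Cox4i1 (931), and the lowest, Cox7b2 (0.416). Cox5a, another complex IV subunit, stood at 40.8. In ATP synthase the catalytic beta subunit Atp5b averaged 710, the alpha subunit Atp5a1 468 and the delta subunit Atp5d 106. In its stalk and membrane part levels ran from Atp5g1 (99.8), a form of the c subunit, to Atp5md (549). The 4 remaining members were near-identical copies of other subunits, from Ndufb4c (0.891) to Ndufab1-ps (9.54), and how reads shared with their parent genes were counted is not given in the sources used here.

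**Figure D1:**
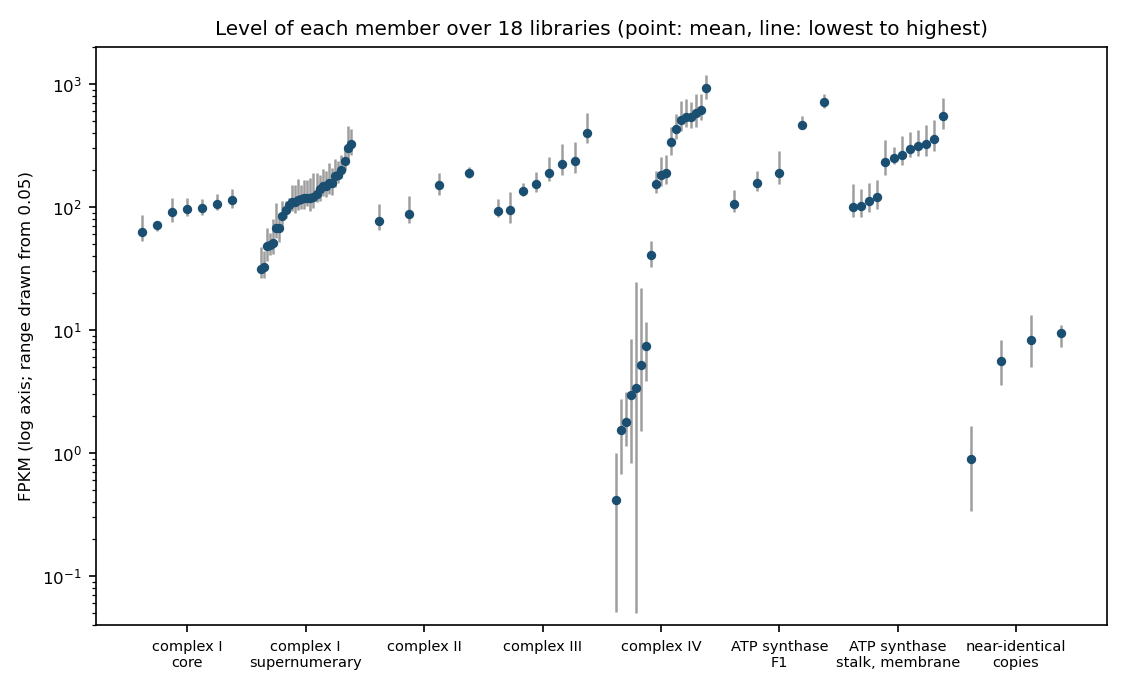
Mean FPKM of each of the 89 members (points, log axis) with the lowest and highest of the 18 libraries (lines), ordered by level within each role; lines that reach lower are drawn from 0.05. Most members lie above 10 FPKM with narrow ranges, while the low complex IV forms Cox8b, Cox6b2 and Cox7a1 spread widely between libraries.

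The spread of members between libraries was largely shared by the set. Each library's deviation was taken as the median, over members, of log2(FPKM + 0.5) less the gene's mean in that tissue. In prefrontal cortex it was -0.01, 0.33 and -0.06 in the 3 wildtype libraries, -0.10, 0.14 and -0.06 in 5xFAD PBS and -0.10, -0.03 and -0.08 in the vesicle group. In hippocampus it was -0.16, 0.05 and 0.17 in wildtype, -0.16, 0.40 and 0.06 in 5xFAD PBS and -0.19, -0.28 and 0.10 in the vesicle group. The 3 groups of each tissue overlapped. The 2 extremes were 5xFAD PBS replicate 2 in hippocampus, where 88 of 89 members were above their tissue mean, and vesicle replicate 2 in hippocampus, where 1 was. Of the 89 members, 67 had their highest level of all 18 libraries in the former, 60 had their lowest hippocampal level in the latter, and 75 had their highest cortical level in wildtype replicate 2.

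Cox4i1, a nuclear subunit of complex IV that takes part in its regulation, shows the pattern in a single gene. Its cortical levels were 916, 1179 and 895 FPKM in wildtype, 867, 1061 and 881 in 5xFAD PBS, and 863, 903 and 846 in the vesicle group. Its hippocampal levels were 796, 954 and 1110 in wildtype, 805, 1186 and 950 in 5xFAD PBS, and 759, 751 and 1027 in the vesicle group. The high values are replicate 2 of wildtype and 5xFAD PBS cortex, and wildtype replicate 3, 5xFAD PBS replicate 2 and vesicle replicate 3 of hippocampus, and all groups of a tissue overlap. Ndufs1, a gene of 2654 bases against 764 for Cox4i1, varied least of the abundant members. It ranged from 64.3 to 76.8 FPKM over the 18 libraries, or 0.26 on the log2 scale, against 0.66 for Cox4i1 and 0.96 for the small complex I subunit Ndufa1. Sdha (2859 bases) ranged by 0.29 and Atp5a1 (2432 bases) by 0.36.

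**Figure D2:**
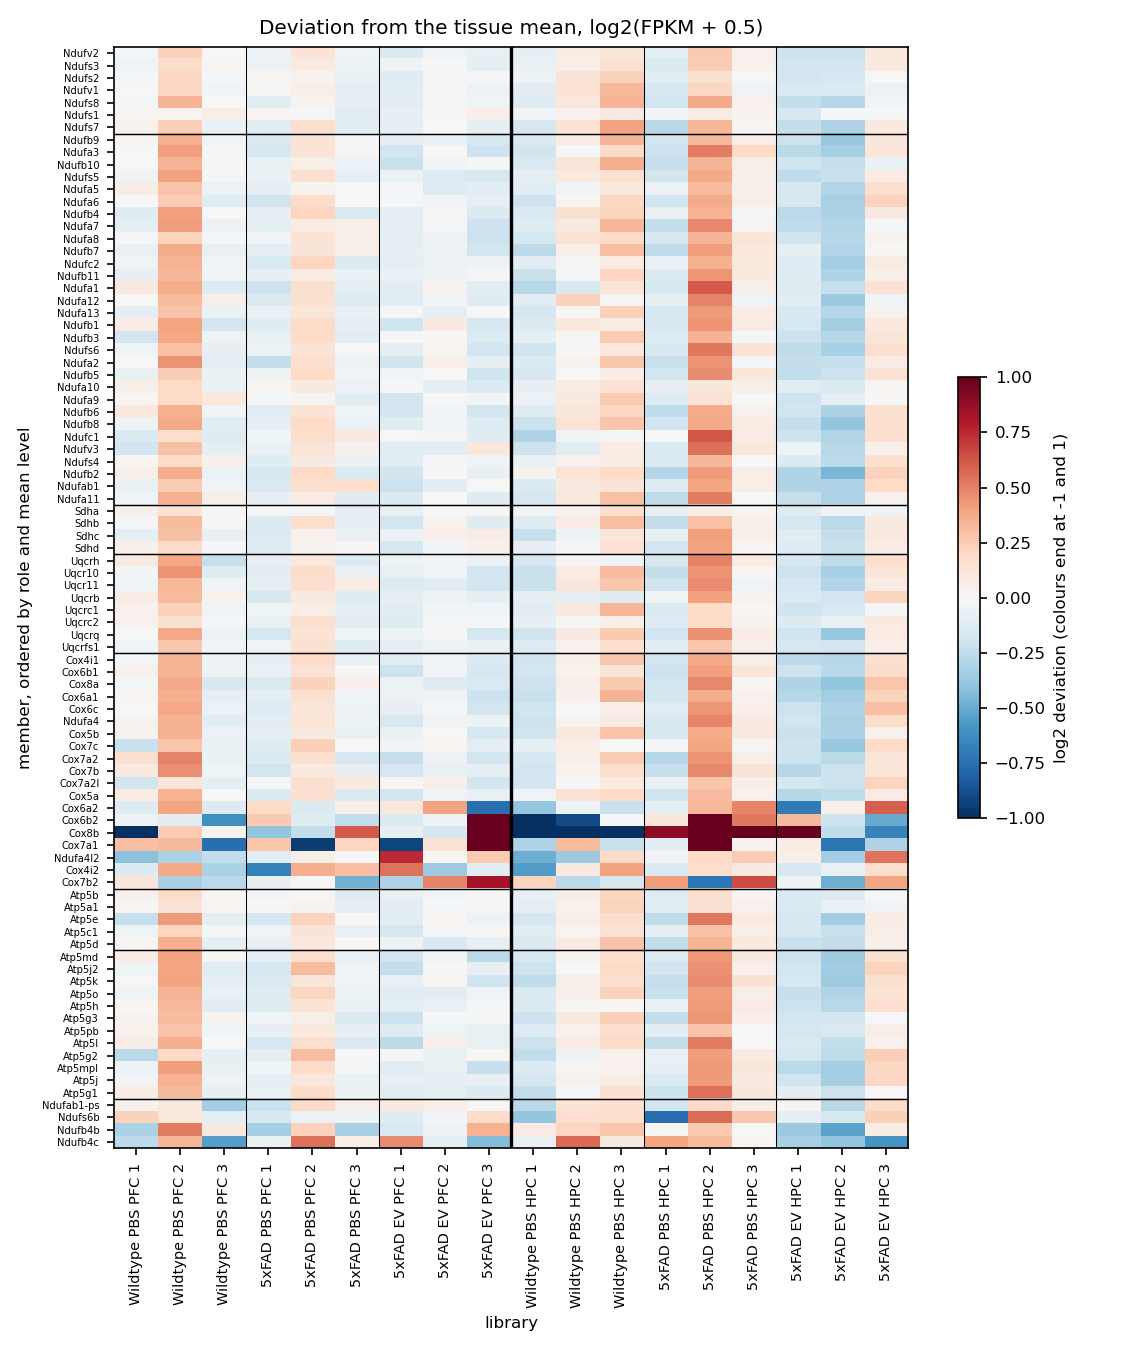
Heat map of each member's log2(FPKM + 0.5) less its mean in that tissue, with members in rows by role and the 18 libraries in columns. Columns are coloured alike from top to bottom, as in 5xFAD PBS replicate 2 of hippocampus (88 of 89 members above 0), while the rows of the low complex IV forms and of the near-identical copies depart from this.

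In the libraries with the largest deviations, the deviation was larger for short members and went with a trend over gene length in the other genes. In 5xFAD PBS replicate 2 of hippocampus the median deviation was 0.46 for the 29 shortest members (at most 546 bases) and 0.28 for the 29 longest (at least 1107 bases). In vesicle replicate 2 of hippocampus it was -0.32 and -0.22, and in wildtype replicate 2 of cortex 0.37 and 0.23. Across the 89 members, which share libraries and are not independent, length and the standard deviation over libraries had a Spearman correlation of -0.60. A slope over log2 gene length was then fitted in each library to the tissue-centred values of 13484 genes that are not members. The slope was -0.16, the lowest of the 9 in that tissue, in 5xFAD PBS replicate 2 of hippocampus, and -0.10, also the lowest, in wildtype replicate 2 of cortex. It was 0.09, the next to highest of that tissue, in vesicle replicate 2 of hippocampus. Ribosomal protein genes shifted in the same direction in these libraries. Cytosolic ribosomal protein genes had median deviations of 0.44, 0.28 and -0.29 and mitochondrial ribosomal protein genes of 0.27, 0.22 and -0.21 in 5xFAD PBS replicate 2 of hippocampus, wildtype replicate 2 of cortex and vesicle replicate 2 of hippocampus. The median deviation of all genes in those libraries was 0.02, -0.01 and -0.01. The order of slope and deviation was not exact over all libraries. The highest hippocampal slope, 0.11 in wildtype replicate 1, went with a deviation ranked 7 of 9 from the top. In cortex the lowest deviation, -0.10 in vesicle replicate 1, went with a slope of 0.0005. The part of the length trend in any result below was examined only by removing it, and its cause was not tested.

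**Figure D3:**
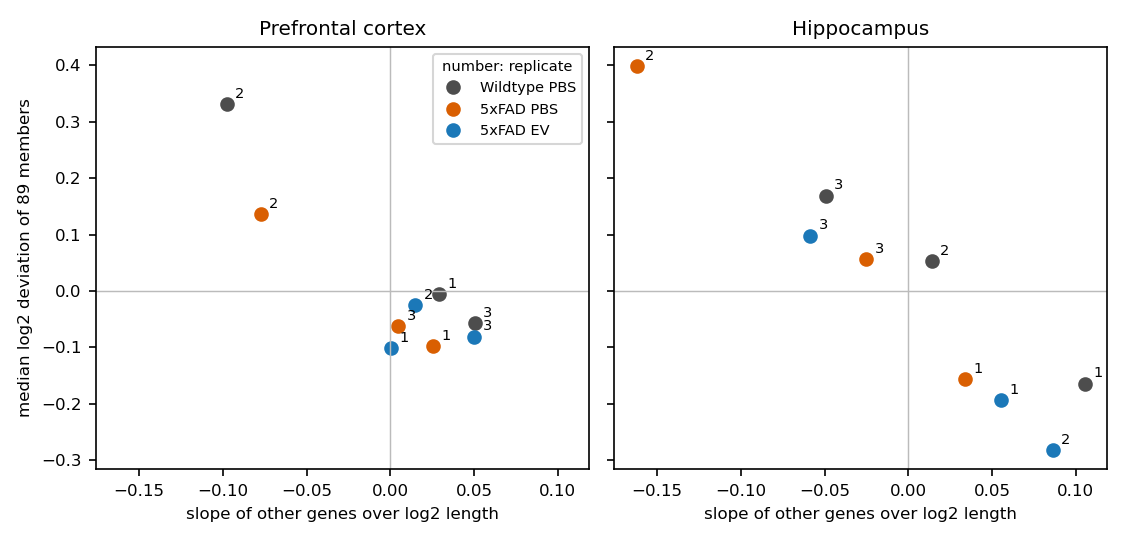
Median log2 deviation of the 89 members in each library (vertical axis) against the slope of the other genes over log2 gene length (horizontal axis), for cortex (left) and hippocampus (right), with replicate numbers beside the points. In each tissue the library with the lowest slope has the highest member level, with -0.16 and 0.40 in 5xFAD PBS replicate 2 of hippocampus.

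The first comparison, 5xFAD PBS against wildtype PBS, asks what the transgenes change. In prefrontal cortex no subunit gene was called by limma at an adjusted p under 0.05, with 0 of 88 members tested (Cox7b2 was too low there) against 1.96% of all genes. At an unadjusted p under 0.05 the count was also 0 (8.16% of all genes), and voom, which weights log2 reads by their precision, called 0. The members' median log2 difference was -0.09 against 0.02 over all genes, and 74 of 88 values were below 0 (43.0% of all genes were). Without wildtype replicate 2 that median was 0.03. Libraries with the same number deviated together in this comparison, and between them the members' median difference was -0.08, -0.18 and 0.02 for replicates 1, 2 and 3. Microglial markers were higher in 5xFAD PBS cortex, with 8 of 9 called, a median of 0.97 and a summed level of 640 to 644 FPKM against 246 to 307, and their part in the members' values was not tested. By role the medians ran from -0.04 for the near-identical copies to -0.11 for complex II, and all 7 complex I core genes and all 8 of complex III had values below 0. In 3 members, Sdha, Atp5b and Ndufs1, all 5xFAD PBS libraries lay below wildtype (4.99% of all genes), and in 1, Ndufa4l2, above it (9.75%). Sdha stood at 183, 185 and 175 FPKM against 192, 206 and 188, and Atp5b at 684, 702 and 639 against 718, 791 and 702. The lowest values were those of Cox7a2 (-0.24), Ndufb4b (-0.24) and Cox7b (-0.23). The highest were those of Ndufb4c (0.34), Ndufa4l2 (0.31), a relative of the complex IV subunit Ndufa4 that is induced by hypoxia and found in pericytes, and Cox8b (0.23). That of Cox8b became -0.15 when wildtype replicate 1, where it had 0 reads, was left out, and -0.08 when 5xFAD PBS replicate 3 was. Ndufa4l2 was at 1.52, 1.77 and 1.67 FPKM against 1.14, 1.25 and 1.34, without overlap (adjusted p = 0.78 in limma).

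In hippocampus the same comparison called 1 of 89 members, Cox8b, which was higher (4.59% of all genes were called, 4.19% higher). At an unadjusted p under 0.05 there were 2 members, Cox8b and Cox6b2 (18.8% of all genes). In 4 members, Cox8b, Cox6b2, Ndufc1 and Uqcrb, all 5xFAD PBS libraries lay above wildtype (16.5% of all genes). The members' median was 0.05 against 0.02 for all genes, with 69 of 89 values above 0 (54.4% of all genes), and it was -0.08 without 5xFAD PBS replicate 2, -0.04 without wildtype replicate 1 and -0.08 with the length trend removed. Microglial markers were again higher, with 8 of 9 called, a median of 1.64 and a summed level of 902 to 1006 FPKM against 251 to 296, and their part was not tested. For the next 8 subunits, from all 5 complexes, the libraries of both groups overlapped. Ndufv1 was at 95.2 ± 12.9 FPKM against 103 ± 15.6 (SD, n = 3 each, as for all means below), Sdha at 190 ± 9.74 against 197 ± 14.3, Uqcrc1 at 155 ± 17.8 against 165 ± 25.6 and Atp5b at 733 ± 70.2 against 756 ± 75.8. Sdhb was at 155 ± 28.4 against 160 ± 24.1, Uqcrfs1 at 101 ± 13.8 against 97.0 ± 9.8, Cox5a at 41.2 ± 7.33 against 42.4 ± 3.64 and Atp5a1 at 484 ± 44.9 against 494 ± 54.1. The lowest log2 differences were -0.12 for Ndufv1, -0.10 for Ndufb4b and -0.10 for Ndufs7, another iron-sulfur subunit of complex I, whose value became 0.05 when 5xFAD PBS replicate 1 was left out and 0.04 when wildtype replicate 3 was. With the length trend removed, 4 members were called: Cox8b (3.31), and 3 that were lower, Ndufb9 (-0.22), Uqcr11 (-0.20) and Uqcr10 (-0.19).

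Cox8b is the heart and skeletal muscle form of a small complex IV subunit whose general form is Cox8a. Its hippocampal levels were 0.169, 0.537 and 0.860 FPKM in wildtype (2, 7 and 11 reads), 6.25, 24.5 and 8.60 in 5xFAD PBS (76, 320 and 105 reads), and 10.0, 2.54 and 1.77 in the vesicle group (124, 34 and 17 reads). Every 5xFAD library was above every wildtype library, and 5xFAD PBS replicate 2 was the highest. In cortex Cox8b lay between 0 and 1.498 FPKM, with the highest value in vesicle replicate 3. The 0 was in wildtype replicate 1, where 3 reads, the limit that a count of 0 allows, would be 0.235 FPKM. In the hippocampal genotype comparison Cox8b rose by 3.56 on the log2 scale (SE 0.61, limma adjusted p = 0.0093). It was called in 13 of 14 alternatives, with adjusted p from 0.004 to 0.061 over all of them. The exception was voom on the recovered reads (log2 difference 4.53, adjusted p = 0.061). Cox8a showed no such order, at 514, 618 and 713 FPKM in wildtype and 522, 829 and 598 in 5xFAD PBS. Cox8b made up 0.0801% ± 0.0442 of the summed FPKM of the pair in wildtype, 1.82% ± 0.917 in 5xFAD PBS and 0.948% ± 0.958 in the vesicle group.

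Choroid plexus transcripts moved with Cox8b. All 13 markers of that epithelium had higher values in 5xFAD PBS than in wildtype hippocampus. Limma called 9 of them and voom 1. Ttr, its most abundant transcript, was at 29.7, 76.5 and 159 FPKM in wildtype, 2532, 8684 and 2697 in 5xFAD PBS and 5532, 2207 and 178 in the vesicle group, which is the order of Cox8b within each of these groups. None of the 13 was at 0 in every library. In the vesicle group Cox8b and Ttr were both highest in replicate 1 and lowest in replicate 3, and in cortex both were highest in vesicle replicate 3 (Ttr 836 FPKM against 1.56 to 11.6 elsewhere). Muscle markers overlapped between the groups in their summed level. The sum of 11 markers was 8.99 to 15.2 FPKM in wildtype and 10.1 to 17.6 in 5xFAD PBS hippocampus, and Ckm was at 0.107 FPKM or less in every hippocampal library. Of the 11, the troponin gene Tnni2 was called higher in hippocampus (1.89 ± 0.562 against 0.279 ± 0.0272 FPKM, adjusted p = 0.024) and in cortex (0.930 ± 0.309 against 0.199 ± 0.0717, adjusted p = 0.015). The part of choroid plexus tissue in the Cox8b result was not tested.

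Cox6b2, the testis form of a subunit that holds complex IV dimers together, had the next largest difference in the hippocampal genotype comparison. It stood at 3.04, 3.31 and 6.51 FPKM in wildtype, 7.19, 21.8 and 9.71 in 5xFAD PBS and 8.34, 5.59 and 4.49 in the vesicle group. The 5xFAD PBS libraries were all above wildtype, but the difference did not pass (1.40, SE 0.40, limma adjusted p = 0.085). Cox7a1, the heart and muscle partner of Cox7a2, was at 2.53, 4.18 and 2.71 in wildtype and 2.99, 8.41 and 3.36 in 5xFAD PBS, and these overlapped (0.46, adjusted p = 0.52). Both were highest of all libraries in 5xFAD PBS replicate 2 of hippocampus. Among cortical libraries both were highest in vesicle replicate 3 (5.95 and 6.10 FPKM). Ttr peaked in the same libraries, but this was not particular to choroid plexus. In all, 67 members had their highest level in that hippocampal library. Tagln, a mural cell marker (19.7 and 9.42 FPKM), and Dcn, a meningeal fibroblast marker (49.98 and 13.1), also peaked in both libraries. Rgs5, another mural cell marker, did not. The part of these tissues in the Cox6b2 and Cox7a1 values was not tested.

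**Figure D4:**
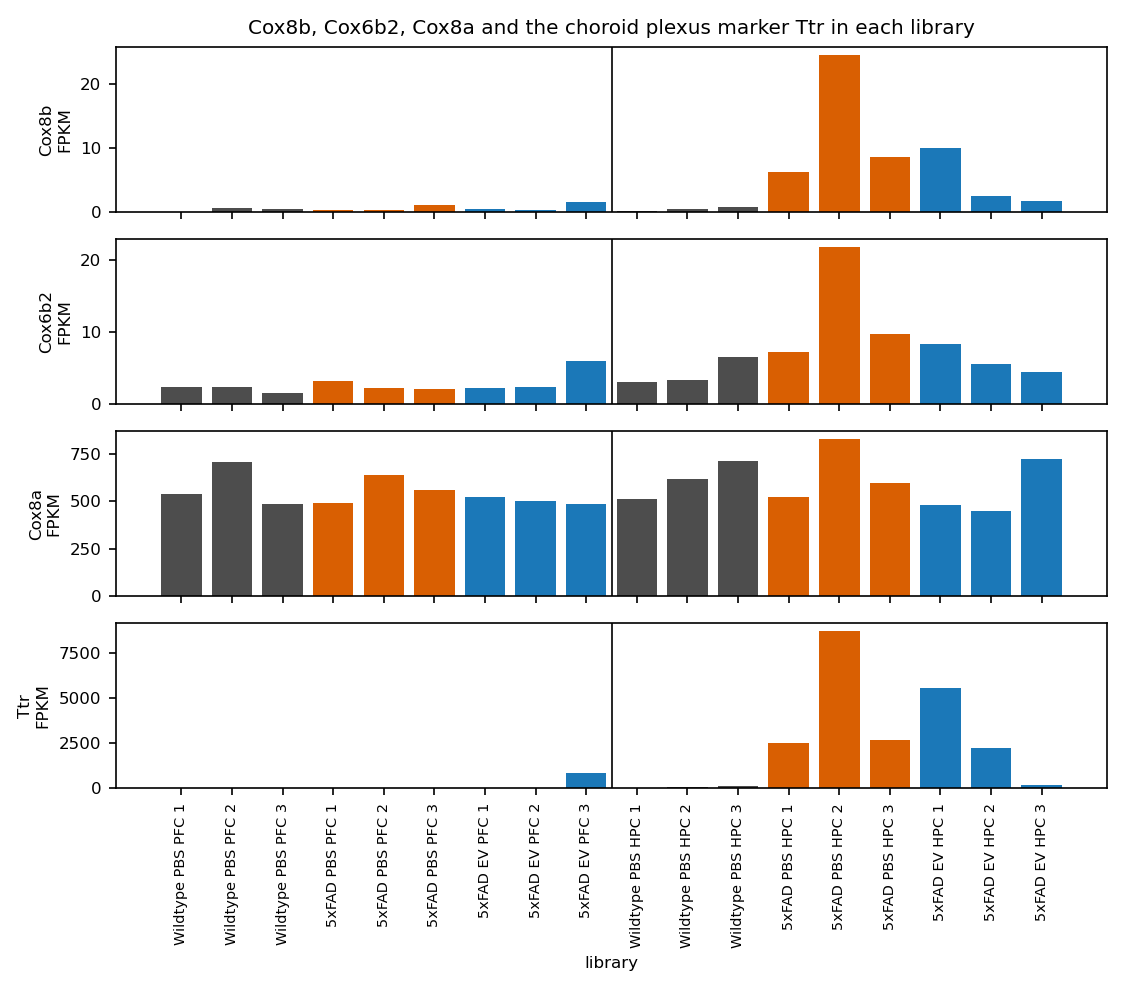
FPKM of Cox8b, Cox6b2, Cox8a and the choroid plexus marker Ttr in each of the 18 libraries (bars, coloured by group, cortex left of the line and hippocampus right). Cox8b and Ttr are both highest in 5xFAD PBS replicate 2 of hippocampus (24.5 and 8684 FPKM) and both low in wildtype, while Cox8a is high everywhere.

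The upstream windows of Cox8b and Cox6b2, the members with the largest hippocampal genotype differences, and of their general forms are shown. Each is the 250 bases before the gene's annotated start, 5′ to 3′ on the gene's strand, from RefSeq on GRCm38.p6, all 4 on the minus strand. They are from chr19:7217617-7217866 (Cox8a), chr7:140900447-140900696 (Cox8b), chr7:30626115-30626364 (Cox6b1) and chr7:4753095-4753344 (Cox6b2). Capitals mark a match to one of the motifs described after them, searched on both strands.
Cox8a: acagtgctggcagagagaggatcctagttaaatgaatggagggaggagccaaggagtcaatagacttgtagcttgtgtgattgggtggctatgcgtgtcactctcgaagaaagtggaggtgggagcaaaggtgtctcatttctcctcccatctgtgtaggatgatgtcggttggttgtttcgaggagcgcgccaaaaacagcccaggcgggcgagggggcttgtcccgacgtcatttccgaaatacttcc
Cox8b: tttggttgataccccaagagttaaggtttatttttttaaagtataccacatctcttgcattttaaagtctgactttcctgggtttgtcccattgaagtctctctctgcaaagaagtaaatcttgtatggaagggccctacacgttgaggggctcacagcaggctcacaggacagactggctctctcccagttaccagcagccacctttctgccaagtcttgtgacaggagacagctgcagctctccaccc
Cox6b1: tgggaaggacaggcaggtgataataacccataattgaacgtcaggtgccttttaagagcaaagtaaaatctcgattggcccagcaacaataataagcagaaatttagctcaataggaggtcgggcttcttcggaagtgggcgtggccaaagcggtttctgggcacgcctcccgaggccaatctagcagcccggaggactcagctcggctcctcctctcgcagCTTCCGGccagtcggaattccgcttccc
Cox6b2: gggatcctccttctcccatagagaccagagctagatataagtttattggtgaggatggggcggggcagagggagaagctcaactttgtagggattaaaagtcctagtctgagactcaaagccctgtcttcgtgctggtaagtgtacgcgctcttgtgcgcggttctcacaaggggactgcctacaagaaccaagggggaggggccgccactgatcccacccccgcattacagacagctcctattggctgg

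Of the 89 members, 71 matched the RefSeq table by Entrez identifier, with 76 windows. These were searched for letters bound by regulators known for mitochondrial genes, and shares are set beside those of all 32851 windows of the same length. The NRF1 core, GCGCA and GCGC with any 1 base between them, was in 18.4% of member windows and 3.74% of all windows, and the ETS core CCGGAAG, bound by GABPA, in 15.8% and 6.91%. The estrogen-related receptor letters AAGGTCA were in 6.58% and 4.08%, and the YY1 letters AAGATGGC in 1.32% and 1.56%. Matches of different motifs overlapped in 0 member windows and in 3 of all windows. Median GC content was 56.2% in member windows and 52.4% in all. Of the windows printed above, Cox6b1 has 1 ETS match and the other 3 have none of the motifs. A match describes letters and not a bound site.

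Vesicle treatment was compared with PBS within 5xFAD mice. These comparisons share the 5xFAD PBS libraries with the genotype comparisons, so a high 5xFAD PBS library moves both in opposite directions. In cortex limma called 0 of 88 members (0.0% of all genes), with 0 at an unadjusted p under 0.05 (4.72% of all genes) and 0 by voom. The members' median was -0.07 against 0.02 over all genes, with 75 of 88 values below 0 (44.1% of all genes), and it was 0.006 without 5xFAD PBS replicate 2 and 0.01 with the length trend removed. The lowest values were those of Ndufb4c (-0.19), Uqcr11 (-0.19), a small complex III subunit, and Atp5mpl (-0.18), a small ATP synthase subunit. Uqcr11 was at 187 ± 5.02 FPKM against 214 ± 20.2. The highest were those of Ndufa4l2 (0.36), Cox7a1 (0.35) and Cox6b2 (0.33). Without vesicle replicate 3 the value was -0.24 for Cox7a1, -0.06 for Cox6b2 and 0.01 for Ndufb4c, and without 5xFAD PBS replicate 2 it was -0.05 for Cox7a1. Ndufa4l2 was at 3.15, 1.71 and 2.11 FPKM with vesicles and 1.52, 1.77 and 1.67 without, which overlap. Values were above 0 for 10 of 11 mural cell markers (median 0.42) and 5 of 5 red cell markers (2.09). They were below 0 for 7 of 7 striatal neuron markers (-1.02) and 9 of 9 microglial markers (-0.23). In these lists 6, 4, 0 and 1 were at an unadjusted p under 0.05, with 0 called in each. The part of these lists in the members' values was not tested.

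In hippocampus every member had a lower value with vesicles than with PBS (89 of 89, against 55.9% of all genes), and limma called 0 of 89 (0.0% of all genes). At an unadjusted p under 0.05 there were 4 members (3.9% of all genes), and voom called 0. The median was -0.21 against -0.02 over all genes. It was -0.07 without 5xFAD PBS replicate 2, -0.36 without 5xFAD PBS replicate 1 and -0.04 with the length trend removed. Values were also below 0 for 78 of 79 cytosolic ribosomal protein genes (median -0.24), 76 of 78 mitochondrial ribosomal protein genes (-0.17), 13 of 13 choroid plexus markers (-1.08) and 5 of 5 markers of meningeal fibroblasts (-0.67), with 0 called in each. Neuron markers went the other way (6 of 8 above 0, median 0.11), as did red cell markers (4 of 4, median 1.67), with 0 called in each. The part of these lists in the members' values was not tested. The lowest values were those of Cox8b (-1.47), Cox6b2 (-0.90) and Cox7a1 (-0.71), whose groups overlapped, and the values nearest 0 those of Ndufa4l2 (-0.05), Ndufab1-ps (-0.04) and Ndufs6b (-0.03). By role the medians ran from -0.14 in the complex I core to -0.24 in its supernumerary subunits. The values of single subunits show the spread behind this: Cox4i1 was at 846 ± 157 FPKM against 980 ± 193, Atp5b at 677 ± 39.3 against 733 ± 70.2, Ndufs1 at 69.2 ± 4.25 against 73.7 ± 2.69 and Sdhb at 139 ± 18.5 against 155 ± 28.4. The libraries of both groups overlapped for each of these 4. The mean slope over gene length was 0.03 ± 0.08 in the vesicle libraries and -0.05 ± 0.10 in the PBS libraries.

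Vesicle-treated 5xFAD mice were also set against wildtype, which shares the vesicle and the wildtype libraries with the comparisons above. In cortex limma called 0 of 88 members (1.52% of all genes), with 8 at an unadjusted p under 0.05 (15.0% of all genes) and 0 by voom. The median was -0.16 against 0.05 over all genes and 79 of 88 values were below 0 (39.5% of all genes). It was -0.04 without wildtype replicate 2 and -0.09 with the length trend removed. In 26 members all 3 vesicle libraries lay below all 3 wildtype libraries, which is 29.5% of members against 5.74% of all genes. They came from complex I (11 genes, among them Ndufv2 and Ndufs8), complex II (Sdha), complex III (Uqcrc1, Uqcrfs1, Uqcrb and Uqcr11), complex IV (Cox5a and Cox7b) and ATP synthase (8 genes, among them Atp5a1 and Atp5b). Of the neuron markers 7 of 8 had values below 0 (median -0.12), with a summed level of 2582 to 2787 FPKM against 2720 to 3062, and of the striatal neuron markers 7 of 7 (median -0.70), with 108 to 608 FPKM against 231 to 661. In both lists 0 were called. Of the microglial markers 7 of 9 were called higher (median 0.80), with a summed level of 473 to 645 FPKM against 246 to 307. The part of these lists in the members' values was not tested.

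Among those 26 members, Atp5b was at 661, 684 and 695 FPKM with vesicles and 718, 791 and 702 in wildtype. Sdha was at 176, 184 and 186 against 192, 206 and 188. The members with the lowest log2 differences were Cox7a2 (-0.36), Atp5md (-0.33) and Ndufb6 (-0.28), with adjusted p of 0.29, 0.27 and 0.27. Atp5md, a small membrane subunit of ATP synthase, was at 461 ± 38.6 FPKM against 582 ± 87.2. Ndufa4l2 had the highest value, 0.67 (SE 0.17, limma adjusted p = 0.098), at 3.15, 1.71 and 2.11 FPKM against 1.14, 1.25 and 1.34 without overlap. Of its 14 alternatives it was called in 1, without vesicle replicate 2 (0.83, adjusted p = 0.045). Mural cell markers, which include pericyte genes, summed to 84.5 to 103 FPKM in the vesicle libraries and 59.6 to 77.2 in wildtype. All 11 values were above 0, with 6 at an unadjusted p under 0.05 (15.0% of all genes). Limma called 0 of them and voom 1, and their part in the Ndufa4l2 values was not tested. Cox6b2 (0.55) and Cox8b (0.49) came next.

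In hippocampus limma called 0 of 89 members against wildtype (2.1% of all genes), with 3 at an unadjusted p under 0.05 (12.3% of all genes) and 0 by voom. The median was -0.14 against 0.002 over all genes, with 78 values below 0 (49.5% of all genes). It was -0.25 without vesicle replicate 3 and -0.07 without wildtype replicate 3. Medians by role lay between -0.09 in complex IV and -0.25 in the near-identical copies, with -0.22 in the complex I core. Ndufb4c (-0.63) and Ndufb4b (-0.47), copies of the complex I subunit Ndufb4, were the lowest, at 0.583 ± 0.103 FPKM against 1.2 ± 0.411 and 4.44 ± 1.12 against 6.23 ± 0.458, followed by Ndufb2 (-0.29). With 1 library left out, Ndufb4b was called (-0.64, adjusted p = 0.035, without vesicle replicate 3). Cox8b was the highest (2.09, SE 0.61, limma adjusted p = 0.17), its vesicle libraries all above wildtype, followed by Cox6b2 (0.50) and Ndufa4l2 (0.30). All 13 choroid plexus markers had values above 0 (median 2.33), with 0 called. Microglial markers were higher, with 8 of 9 called (median 1.31). The part of both lists in the members' values was not tested.

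**Figure D5:**
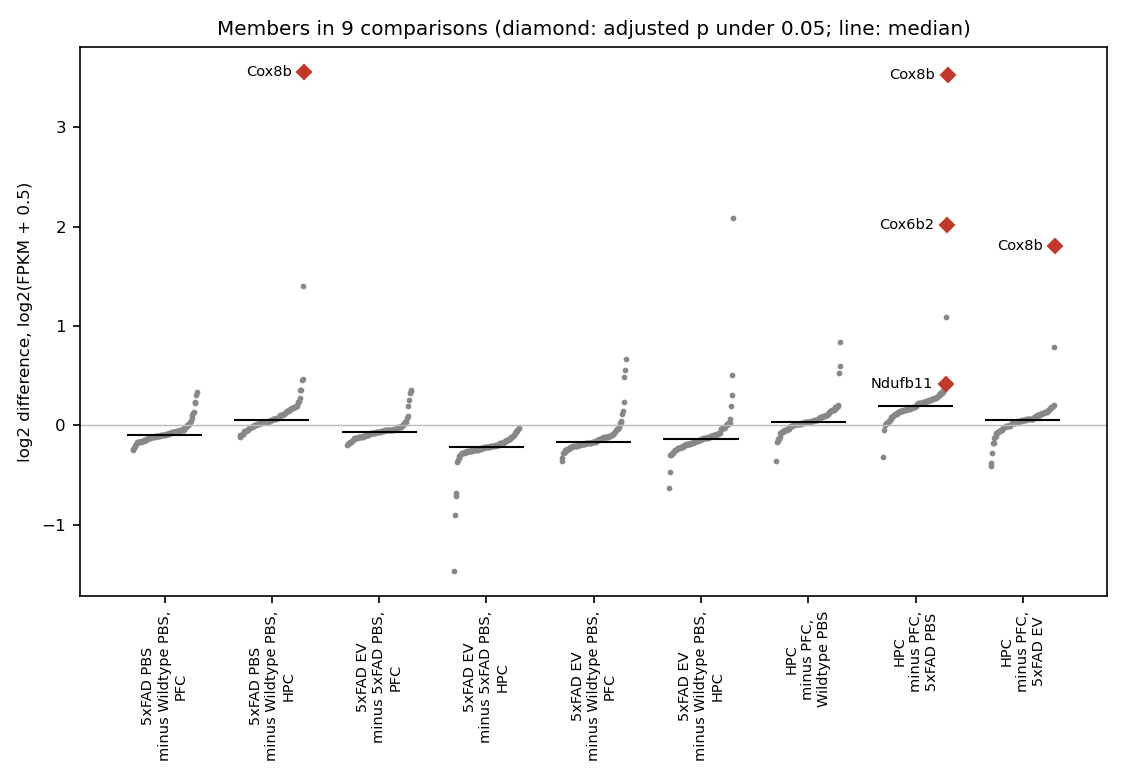
Log2 differences of all members tested (points, sorted within each comparison) in the 9 comparisons between groups or tissues, with the median as a line and called members as diamonds. The bulk of the members lies within a narrow band, and the called ones are Cox8b, Cox6b2 and Ndufb11.

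Between tissues few subunit genes were called. In wildtype limma called 0 of 89 members, while 15.9% of all genes differed between hippocampus and cortex. At an unadjusted p under 0.05 there were 2 members (28.0% of all genes), Cox6b2 and Ndufb4c, and voom called 0. The median was 0.04, as over all genes, with 66 values above 0 (56.9% of all genes). Its direction depended on single libraries, with -0.04 without hippocampal replicate 3, -0.01 and -0.03 without cortical replicates 1 and 3 and 0.14 without cortical replicate 2. It was -0.04 with the length trend removed and -0.001 with the median of all genes shifted to 0. Role medians lay between 0.02 and 0.05, apart from 0.10 for the near-identical copies. Ndufs1 was at 74.1 ± 2.94 FPKM in hippocampus and 73.3 ± 1.13 in cortex, Sdha at 197 ± 14.3 and 195 ± 9.26, Cox4i1 at 954 ± 157 and 996.5 ± 158 and Atp5a1 at 494 ± 54.1 and 479 ± 21.2. The values farthest from 0 were Cox6b2 (0.84), Ndufb4c (0.60) and Cox7a1 (0.52) above it and Cox4i2 (-0.36), Cox7b (-0.17) and Uqcrb (-0.16) below it. Cox6b2 was at 3.04, 3.31 and 6.51 FPKM against 2.44, 2.32 and 1.497 in cortex, without overlap (adjusted p = 0.17).

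In 5xFAD PBS mice 3 of 89 members were called higher in hippocampus and 0 lower (25.1% of all genes were called, 15.3% higher). At an unadjusted p under 0.05 there were 7 (36.9% of all genes). Cox8b rose by 3.52 (SE 0.57, limma adjusted p = 0.00034), from 0.554 ± 0.426 FPKM in cortex to 13.1 ± 9.95. Cox6b2 rose by 2.02 (SE 0.39, adjusted p = 0.0013), from 2.51 ± 0.574 to 12.9 ± 7.79. All 13 choroid plexus markers were called higher by limma in this comparison too (10 by voom), and their part in it was not tested. Ndufb11, a supernumerary subunit of the membrane arm of complex I, was at 126, 188 and 148 FPKM against 109, 123 and 111, a difference of 0.41 (SE 0.15, adjusted p = 0.048). Without 5xFAD PBS replicate 2 of hippocampus it was 0.26 (adjusted p = 0.25), and it passed in 6 of 14 alternatives. The median of the members was 0.20 against 0.06 over all genes, with 87 of 89 values above 0 (58.2% of all genes), and it was 0.05 without 5xFAD PBS replicate 2 of hippocampus and -0.02 with the length trend removed. With 5xFAD PBS replicate 1 of hippocampus left out instead, 11 members were called. The lowest values were those of Cox4i2 (-0.32) and Ndufv1 (-0.04), the only ones below 0, and Ndufv1 was at 0.04 without 5xFAD PBS replicate 1 of hippocampus.

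In vesicle-treated mice 1 of 89 members was called, Cox8b (16.9% of all genes were, 8.6% higher), and it was the only member at an unadjusted p under 0.05 (29.5% of all genes). It was higher in hippocampus by 1.80 (SE 0.57, limma adjusted p = 0.039), and in 7 of 14 alternatives it did not pass, with 1.14 (adjusted p = 0.20) without vesicle replicate 1 of hippocampus. Its levels were 10.0, 2.54 and 1.77 FPKM in hippocampus and 0.450, 0.399 and 1.498 in cortex. Cox6b2 followed (0.79, adjusted p = 0.19). It passed at 1.18 (adjusted p = 0.05 after rounding) without vesicle replicate 3 of cortex, the library with the high choroid plexus sum. The median of the members was 0.05 against -0.01 over all genes, with 62 values above 0 (48.3% of all genes). It was -0.06 without vesicle replicate 3 of hippocampus, 0.12 without replicate 2 of that tissue and -0.07 with the length trend removed. Cox4i2 (-0.41), Ndufb4b (-0.38) and Cox7b2 (-0.28) were lowest, and Uqcr11 (0.20) was the highest after Cox6b2.

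The differences between tissues in the group effects were tested directly. The genotype effect in hippocampus less that in cortex was called for 0 of 89 members (0.0% of all genes), with 3 at an unadjusted p under 0.05 (5.8% of all genes) and 0 by voom. The median was 0.14 with 83 values above 0 (52.4% of all genes), and 0.002 without 5xFAD PBS replicate 2 of hippocampus. Cox8b had the largest value (3.32, SE 0.80, limma adjusted p = 0.53), then Cox6b2 (1.18) and Cox7a1 (0.57), and Ndufb4c (-0.29), Ndufab1-ps (-0.07) and Ndufv1 (-0.05) had the lowest. With 1 library left out, Ndufab1-ps reached 0.07 and Ndufv1 0.05. The vesicle effect in hippocampus less that in cortex was likewise called for 0 of 89 (0.0% of all genes), with 2 at an unadjusted p under 0.05 (5.01% of all genes) and 0 by voom. All 89 values were below 0 (60.7% of all genes), with a median of -0.13 that was -0.0004 without 5xFAD PBS replicate 2 of hippocampus. Cox8b (-1.72), Cox6b2 (-1.23) and Cox7a1 (-1.06) were the lowest, and Uqcrc2, Uqcr11 and Ndufa10 (-0.02, -0.02 and -0.01) the nearest to 0.

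The general form made up nearly all of each pair in brain. Of the summed FPKM of the pair, the hypoxia and lung form Cox4i2 made up 0.129% to 0.213% as group means, and Cox6a2, the heart and muscle partner of Cox6a1, 1.11% to 1.53%. Cox7a1 made up 0.944% to 2.23% of its pair with Cox7a2, and Ndufa4l2 0.238% to 0.503% of its pair with Ndufa4. Cox6b2 made up 0.324% ± 0.0699 in wildtype cortex and 1.77% ± 0.692 in 5xFAD PBS hippocampus, the extremes of its groups. Cox7a2l, a relative of Cox7a2, averaged 155 FPKM, and Cox7a2 itself 191. Of the 3 genes for the proton-carrying c subunit of ATP synthase, which encode the same mature protein, Atp5g3 made up 56.8% ± 0.839 in wildtype and 53.5% ± 2.02 in 5xFAD PBS cortex. In hippocampus the shares were 56.3% ± 0.928 and 53.4% ± 0.588. Atp5g2 made up 22.9% ± 1.57 and 26.4% ± 1.70 in cortex and 23.3% ± 0.909 and 25.2% ± 1.45 in hippocampus. Atp5g1 group means lay between 19.3% and 21.4% in all groups. These shares were not tested. Atpif1, which inhibits ATP synthase running in reverse and is not a member by its symbol in the table, averaged 117 FPKM. It was called in none of the 11 comparisons (0.08, adjusted p = 0.85, for genotype in hippocampus).

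Genes around the complexes were summarised from lists of assembly factors (50 tested), electron carriers and ubiquinone synthesis (20), the TCA cycle with pyruvate dehydrogenase (18), ADP, ATP and phosphate exchange (7), regulators of mitochondrial biogenesis (15) and the mitochondrial ribosome (78). In the genotype, vesicle and interaction comparisons limma called 0 of their 188 genes, voom also called 0, and 4 to 17 (2.13% to 9.04%) were at an unadjusted p under 0.05. Over all genes limma called 0.0% to 4.59% in these comparisons, and 3.9% to 18.8% were at an unadjusted p under 0.05. Medians of the vesicle comparison in hippocampus were -0.12, -0.11, -0.05, -0.14, 0.03 and -0.17 in that order, beside -0.21 for the subunits and -0.24 for the cytosolic ribosome. Between tissues 6, 13 and 11 of the 188 were called in wildtype, 5xFAD PBS and vesicle mice (3.19%, 6.91% and 5.85%, against 15.9%, 25.1% and 16.9% of all genes). Gpd2, the mitochondrial glycerol phosphate dehydrogenase, was higher in hippocampus in all 3 groups (0.46, 0.37 and 0.48 in wildtype, 5xFAD PBS and vesicle mice), as was Dlat, a pyruvate dehydrogenase subunit (0.29, 0.27 and 0.23). The complex IV assembly factor Cmc2 was lower in all 3 (-0.56, -0.53 and -0.49). Atpaf1, which assembles the ATP synthase head, was lower in 5xFAD PBS (-0.36) and vesicle mice (-0.56). Of the regulators, Esrrg was lower in the same groups (-0.56 and -0.96), and Ppargc1a, the coactivator of mitochondrial genes, and Esrra in vesicle mice (-0.41 and -0.35). In 5xFAD PBS mice Etfb and Etfdh, which pass electrons from fatty acid oxidation to ubiquinone, were higher (0.76 and 0.50), as was the mitochondrial isocitrate dehydrogenase Idh2 (0.67). The 10 fast-spiking interneuron markers summed to 535 FPKM in vesicle replicate 3 of cortex, against 198 to 257 in the other cortical libraries. Pvalb alone was at 283 there, and Kcnc1, Gad1 and Syt2 were also at their highest of all libraries. Lhx6 (2.92), Kcnc2 (5.04) and Kcns3 (0.944) were instead at their lowest of all libraries, so the list did not move as one. The part of these genes in the Esrrg and Ppargc1a values was not tested.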

How the data were processed

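Bulk RNA was sequenced on an Illumina platform, per the labels' protocols. The authors deposited FPKM values for 18683 genes. Per the submitters' processing notes, the build was GRCm39 and the software included HISAT2, HTSeq and fastp (no versions given). The sources used here give no annotation release, strand setting or rule for shared reads. Reads and gene lengths were recovered from the FPKM steps for 18682 genes (whole within 0.01 read).

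Tests used limma 3.58.1 in R 4.3.3 with a mean-variance trend on log2(FPKM + 0.5), which understates changes of low genes. Genes with at least 0.5 FPKM in 3 libraries entered, with all 9 libraries of a tissue, or all 18 between tissues, in 1 fit. Tests were two-sided, with Benjamini-Hochberg adjustment over all genes, called at an adjusted p under 0.05. A check of the code on simulated data used independent noise for each gene, without shifts shared by a library. It does not bear on the shared shifts of the members. Groups and replicate numbers came from the titles. No replicate pair was a repeated library (chi-square per gene at least 10.1). All 3 same-numbered pairs had a correlation of 0.169 or more only between 5xFAD PBS and wildtype cortex (0.213, 0.509 and 0.169), from the values and not the labels. Between hippocampus and cortex the correlations were 0.381, 0.495 and 0.012 in 5xFAD PBS and 0.305, 0.166 and -0.275 in wildtype. In vesicle mice they were -0.243, 0.086 and -0.209. The labels do not say that equal numbers in both tissues mark 1 mouse. Alternatives were the pseudocount, no filter, a median shift, fewer groups in the fit, a replicate block, voom on recovered reads, removal of the length trend and leaving out each library. Members and lists were chosen with earlier results of these data known. Named were 10 subunits across the complexes, paired forms, Atpif1, called members, the 3 largest differences per direction and the extremes of each complex. Other genes, such as members whose groups do not overlap, were named after their values were seen.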

Additional observations from a re-analysis of the deposited data

How the results depend on the processing

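Of 328 alternative values of the member counts and medians, 308 kept the count within 1.5 times or the median within the spread between libraries. The rule for medians did not ask for the same sign. For genotype in hippocampus the median was 0.05 and the spreads 0.17 and 0.28 (SD), so the 308 does not measure whether directions held. Medians changed sign in at least 1 alternative for genotype in both tissues, vesicles against PBS in cortex, and between tissues in all 3 groups. The count of called members for 5xFAD PBS against wildtype in hippocampus was 0 with voom and 4 with the length trend removed. For vesicles against wildtype it was 1 in hippocampus with the trend removed, and 0 to 1 in both tissues when 1 library was left out. Between tissues with the length trend removed it was 1 in wildtype, 6 in 5xFAD PBS (median -0.0232) and 5 in vesicle mice (median -0.0709). The 1 in wildtype, Uqcrb, was lower in hippocampus (-0.27). In 5xFAD PBS Cox4i1 (-0.18), Ndufb4 (-0.21) and Ndufs5 (-0.14) were lower, and Cox8b, Cox6b2 and Ndufb11 higher. In vesicle mice Cox4i1 (-0.20), Ndufb4 (-0.26), Ndufb4b (-0.57) and Ndufs8 (-0.23) were lower, and Cox8b higher. Leaving out 1 library gave 0 to 1, 2 to 11 and 0 to 2 called in the same order. In vesicle mice it was 0 with a pseudocount of 0.1, without a filter, with only the groups compared and with voom. These settings also change which genes and libraries are tested, and the cause of each change was not tested. Of 885 alternative values of single genes, 837 kept direction and call, 11 moved by more than the spread, 16 lost a call, 6 gained one and 15, all of uncalled genes with 1 library left out, changed sign. The ranges of these genes with 1 library left out were as follows. For genotype they were -0.151 to 0.483 for Cox8b in cortex and -0.254 to 0.0501 for Ndufs7 in hippocampus. For vesicles in cortex they were -0.0629 to 0.548 for Cox6b2, -0.238 to 0.905 for Cox7a1 and -0.44 to 0.0137 for Ndufb4c. Between tissues in 5xFAD PBS the range was -0.146 to 0.0426 for Ndufv1, and for the tissue difference in the genotype effect -0.206 to 0.0723 for Ndufab1-ps and -0.164 to 0.0549 for Ndufv1. With the replicate block the count of called members was 0 in cortex and 1 in hippocampus for the genotype comparison, as without it. It was 4 against 3 between tissues in 5xFAD PBS mice, and the block changed no call of a named gene. The low forms Cox8b, Cox7b2 and Ndufb4c rest on few reads in most libraries. With 3 libraries a group, differences of the size of the median subunit shift (0.21 or less) lie near the median SE of 0.12 in cortex and 0.17 in hippocampus.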
